A study of Mus musculus with 43 samples.

Results

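The dorsomedial hypothalamus (DMH) and the ventromedial hypothalamus (VMH) were compared within the same fed mice. The comparison used the 5 mice that had a fed library of both nuclei, labelled Fed-111, Fed-125, Fed-127, Fed-308 and Fed-313, which gave 5 DMH and 5 VMH libraries of the 43 samples in the series. A fed DMH library of mouse Fed-92 had no matched VMH library and entered only an alternative fit. The series measured RNA in 4 hypothalamic nuclei of adult male mice, either fed ad libitum or fasted for 24 hours. All mice compared here carried the paternal deletion of the Snord116 cluster, a group of small nucleolar RNA genes that is lost in Prader-Willi syndrome, and their strain was labelled C57/BL6. No wild-type mouse was analysed here, so every difference between nuclei was measured on the deletion background. The deletion is congenital and present in all cells. The table held no identifier for the deleted cluster or its host transcript, so the deletion itself was not checked in these libraries. The nuclei were cut with a laser from stained frozen sections, and a library is therefore a mixture of the neurons, glia, vessels and passing fibres inside the outline.

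Both nuclei lie in the mediobasal hypothalamus, the DMH just above the VMH. The VMH is built mostly of glutamatergic neurons and is known for its part in energy expenditure, glucose balance and defensive and sexual behaviour. The DMH holds mixed GABAergic and glutamatergic neurons, many of them peptidergic, and is known for circadian feeding, thermogenesis and the response to stress. In bulk tissue, fewer cells of a type and less RNA per cell cannot be told apart.

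Expression was measured as CPM, the reads of a gene scaled to a common library size. Depth, read from the smallest steps in each library's values, was 2.93 to 5.90 M reads (M, mega) in 4 DMH libraries, 8.23 M in the DMH library of mouse Fed-308 and 3.44 to 5.91 M in the VMH libraries. Between 95 and 396 of the 10127 genes in the table were at 0 in a library. On log2(CPM + 0.5), the scale of all differences given here, the correlation across genes was 0.857 to 0.927 between libraries of one nucleus and 0.826 to 0.907 between libraries of different nuclei. Of the variance among the 10 libraries, the first principal component held 23.8%, and nucleus accounted for 96.1% of that component. The second component held 15.6% and was explained to 98.4% by the batch of capture and library preparation, which put mouse Fed-111 in the first batch, mice Fed-125 and Fed-127 in the second and mice Fed-308 and Fed-313 in the third. Each batch held both nuclei of its mice, so batch and nucleus were not confounded.

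Of 9558 genes tested, 1170 (12.2%) passed the study's threshold of an adjusted p under 0.1. DMH had the higher level in 527 of them (5.51% of genes tested) and VMH in 643 (6.73%). A difference of at least 1 on the log2 scale was seen in 277 of the genes higher in DMH (2.9% of genes tested) and in 3.27% of genes tested on the VMH side. The called genes differed by a median of 1.07 where DMH was higher and -0.98 where VMH was higher, against a median of 0.03 over all genes tested. In 1037 of the 1170 genes all 5 mice had the same direction. The DMH and VMH libraries did not overlap in 625 genes (6.54%), of which 551 were called. Within the batches, 1141 of the 1170 genes had the direction of the whole comparison in mouse Fed-111. The count was 1170 in the mean of mice Fed-125 and Fed-127, and 1169 in the mean of mice Fed-308 and Fed-313. The genes were called from these same mice, so these counts do not test agreement between mice or batches.

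**Figure D1:**
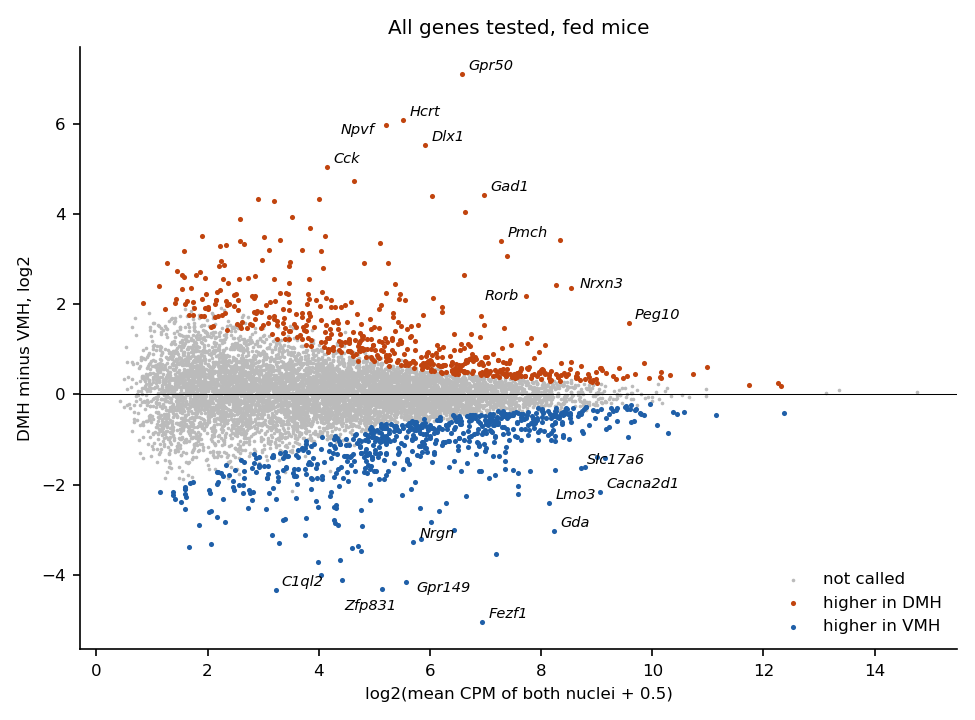
Difference between DMH and VMH of the same fed mice (y axis, log2) against the mean level of both nuclei (x axis, log2 of CPM + 0.5), 1 point per gene for the 9558 genes tested. The 527 genes called higher in DMH are orange, the 643 called higher in VMH are blue and the rest are grey, and Gpr50 at 7.10 and Fezf1 at -5.04 lie at the upper and lower ends.

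The marker chosen for each nucleus was higher in the nucleus it names. These markers and the marker lists were chosen with earlier results of these data known, so they do not test the captures. Npvf, which encodes the RF-amide peptide precursor of neurons in the DMH, was at 67.2, 57.6, 56.5, 112 and 68.5 CPM in the DMH of mice Fed-111, Fed-125, Fed-127, Fed-308 and Fed-313. In VMH of the same mice it was at 0, 1.73, 1.00, 0.226 and 1.02 CPM. The groups did not overlap, and the difference was 5.96 ± 0.46 (SE, n = 5 pairs; adjusted p = 2.99e-07). Fezf1, a zinc-finger transcription factor required for the formation of the VMH, was at 6.14, 5.82, 4.82, 7.41 and 10.5 CPM in DMH against 193, 256, 254, 256 and 233 CPM in VMH. All VMH libraries lay far above all DMH libraries (-5.04 ± 0.22, adjusted p = 2.59e-09). Of the 16 VMH markers tested, 11 were higher in VMH and 2 were higher in DMH, against 6.73% and 5.51% of all genes tested, and the list had a median of -1.78. Gda, which encodes guanine deaminase, was at 66.1 ± 22.4 CPM in DMH and 532 ± 105 CPM in VMH (SD, n = 5). Bdnf, a neurotrophin that curbs feeding, was at 5.42 ± 4.33 and 34.5 ± 9.18 CPM. The members that went the other way were Dlk1, an imprinted gene for a Notch-like ligand, at 2.42, and Hpcal1, a neuronal calcium sensor, at 0.87. All 5 DMH markers tested (Npvf, Cck, Hmx2, Brs3 and Penk) were higher in DMH, with a median of 3.52. Nr5a1, the classical VMH marker, was not analysed here.

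Promoter sequences are given for 4 genes higher in DMH and 3 higher in VMH, to show on each side windows with and without the motif TAATTA. They were chosen after the motifs and values were seen. RefSeq promoter windows of build GRCm38.p6, from 250 bases before to 50 bases after a start, were found by symbol for 6902 of the 9558 genes tested. A pair of motifs were searched on both strands: TAATTA, a palindrome and the core that homeodomain factors such as the Dlx family bind, and AAGGTCA, the half-site bound by Nr5a1. A site of one motif can share at most 1 base with a site of the other. TAATTA was in 171 of all windows (2.48%), in 7 of 191 windows of genes at least 1 higher in DMH (3.66%) and in 9 of 229 windows of genes at least 1 higher in VMH (3.93%). AAGGTCA was in 225 of all windows (3.26%), in 2 of the 191 (1.05%) and in 10 of the 229 (4.37%). The windows held a median of 15 CpG dinucleotides on the DMH side and 19 on the VMH side, against 20 over all windows. The bases before the start are printed 5′ to 3′ on the strand of the gene, with TAATTA in capitals. Npvf (chr6:50654446-50654695, minus strand) holds TAATTA at 2 places, Brs3 (chrX:57042824-57043073, plus strand) also at 2, and Asb4 (chr6:5383136-5383385, plus strand) at 1. On the VMH side, Chrm5 (chr2:112480818-112481067, minus strand) holds it at 1 place. Gpr50 (chrX:71663417-71663666, plus strand), Cckbr (chr7:105425481-105425730, plus strand) and Fezf1 (chr6:23248363-23248514, minus strand, shown up to the annotated gene boundary) hold neither motif in the stretch shown.
Npvf: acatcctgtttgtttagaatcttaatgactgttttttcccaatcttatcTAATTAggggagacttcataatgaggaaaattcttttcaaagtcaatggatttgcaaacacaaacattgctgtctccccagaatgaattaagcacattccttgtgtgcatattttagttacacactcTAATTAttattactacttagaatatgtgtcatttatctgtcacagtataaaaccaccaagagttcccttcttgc
Asb4: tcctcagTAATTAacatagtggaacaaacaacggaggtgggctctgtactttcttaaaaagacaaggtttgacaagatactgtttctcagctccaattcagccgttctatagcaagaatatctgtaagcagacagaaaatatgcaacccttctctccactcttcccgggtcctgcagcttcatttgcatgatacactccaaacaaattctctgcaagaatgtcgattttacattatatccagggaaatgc
Brs3: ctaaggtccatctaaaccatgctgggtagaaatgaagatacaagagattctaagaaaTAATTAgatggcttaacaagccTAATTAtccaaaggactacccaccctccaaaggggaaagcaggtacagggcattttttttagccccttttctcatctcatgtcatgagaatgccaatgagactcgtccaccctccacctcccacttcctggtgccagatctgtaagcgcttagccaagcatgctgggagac
Gpr50: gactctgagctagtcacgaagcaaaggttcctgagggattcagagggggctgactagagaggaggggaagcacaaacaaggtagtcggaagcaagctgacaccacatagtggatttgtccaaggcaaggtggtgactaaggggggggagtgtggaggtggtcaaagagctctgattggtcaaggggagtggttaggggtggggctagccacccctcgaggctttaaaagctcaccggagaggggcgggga
Chrm5: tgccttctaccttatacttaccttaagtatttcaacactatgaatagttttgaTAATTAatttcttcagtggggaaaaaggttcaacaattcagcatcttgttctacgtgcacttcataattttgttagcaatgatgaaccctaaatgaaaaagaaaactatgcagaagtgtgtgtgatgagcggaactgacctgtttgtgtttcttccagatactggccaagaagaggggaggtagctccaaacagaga
Cckbr: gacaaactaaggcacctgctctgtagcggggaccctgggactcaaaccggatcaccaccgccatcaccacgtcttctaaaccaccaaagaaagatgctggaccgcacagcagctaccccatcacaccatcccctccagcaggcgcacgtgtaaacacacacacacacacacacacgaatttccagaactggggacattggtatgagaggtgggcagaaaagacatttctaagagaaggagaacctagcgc
Fezf1: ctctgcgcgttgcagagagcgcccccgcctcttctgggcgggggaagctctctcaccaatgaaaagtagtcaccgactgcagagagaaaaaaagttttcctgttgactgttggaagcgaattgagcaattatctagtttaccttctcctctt

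Among the genes higher in DMH with a mean of at least 5 CPM, Gpr50 had the largest difference. It encodes an orphan receptor related to the melatonin receptors. Gpr50 was at 229, 142, 173, 188 and 211 CPM in DMH and at 0, 0.518, 3.25, 1.58 and 0.677 CPM in VMH, in the order of mice above. The lowest DMH library was thus well above the highest VMH library, with a difference of 7.10 ± 0.41 (adjusted p = 1.60e-08). Asb4, a component of ubiquitin ligase complexes that is enriched in feeding-related hypothalamic neurons, was at 133, 198, 186, 183 and 220 CPM in DMH against 3.20, 15.2, 9.998, 11.1 and 21.8 CPM in VMH. The difference was 4.05 ± 0.25 (adjusted p = 2.71e-08), and no library of one nucleus reached the range of the other. Bsx, a homeobox factor of hypothalamic feeding neurons, was at 9.11 to 26.6 CPM in DMH and 0 to 1.52 CPM in VMH (4.28 ± 0.55). Th, the rate-limiting enzyme of catecholamine synthesis, was at 79.4, 25.6, 39.5, 35.8 and 52.7 CPM in DMH and at 0.291, 4.49, 0, 1.36 and 2.88 CPM in VMH. The Th difference was 4.73 ± 0.56 (adjusted p = 3.72e-05). Th also marks arcuate neurons, and the other arcuate marker tested, Npy, stood at 2.14 ± 1.93 CPM in DMH and 4.06 ± 4.45 CPM in VMH and was not called (adjusted p = 0.547).

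On the VMH side, the largest differences after Fezf1 were those of C1ql2, a secreted protein of the C1q family found at synapses, and Zfp831, a zinc-finger gene. Zfp831 was at 2.39, 3.95, 0.964, 3.04 and 5.09 CPM in DMH and at 48.3, 94.4, 61.2, 67.0 and 61.4 CPM in VMH, a difference of -4.32 ± 0.35 (adjusted p = 5.35e-07). C1ql2 was between 0 and 0.848 CPM in DMH and between 7.77 and 29.0 CPM in VMH (-4.35 ± 0.53, adjusted p = 5.40e-05). Gpr149, an orphan receptor, varied little within each nucleus. It was at 5.45, 3.33, 3.85, 4.25 and 6.10 CPM in DMH and at 92.8, 71.1, 86.2, 95.9 and 98.9 CPM in VMH, so that every mouse differed by between -4.34 and -3.91. Hmcn2 and Lbhd2 differed by -4.12 and -4.01, and for both the library of mouse Fed-111 was the highest of its group in DMH and in VMH. Tmem35a, an endoplasmic reticulum chaperone of nicotinic receptors, was at 27.2 ± 20.3 CPM in DMH and 262 ± 45.0 CPM in VMH (-3.55 ± 0.29). Rab38, a small GTPase of vesicle transport, was at 0 in all 5 DMH libraries and at 5.53, 7.60, 6.0, 1.36 and 6.09 CPM in VMH. Against a floor of 3 reads per library, a mean of 0.619 CPM, Rab38 was at least 8.58-fold higher in VMH, a limit that covers counting error only.

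**Figure D2:**
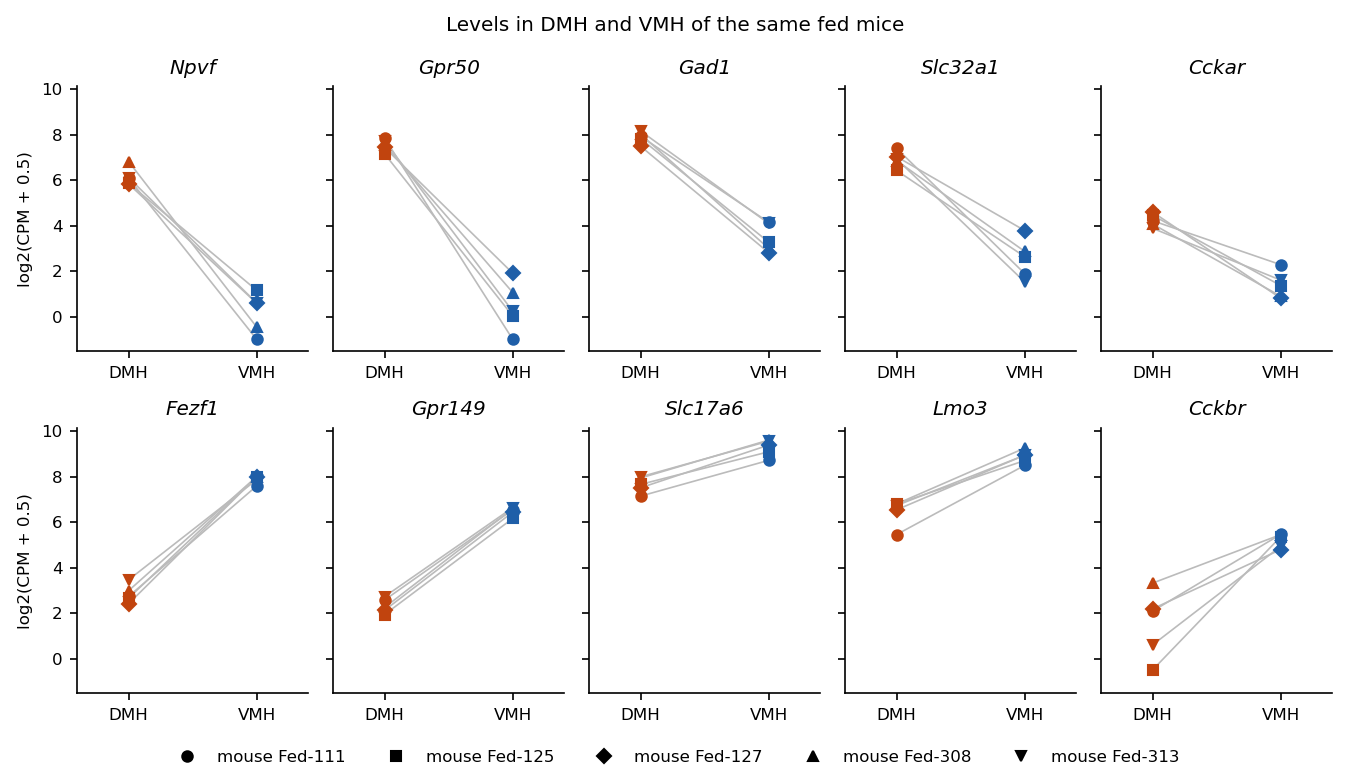
Level of 10 genes (y axis, log2 of CPM + 0.5) in DMH (orange) and VMH (blue) of the 5 fed mice, with a line joining the libraries of 1 mouse and a symbol for each mouse. In the upper panels every DMH library lies above every VMH library, as for Gad1 with 179 to 286 CPM against 6.5 to 17.2 CPM, and in the lower panels every VMH library lies above every DMH library.

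Most genes tested from the GABA neuron list were higher in DMH, and those from the glutamate neuron list were divided. GABA is made by the decarboxylases Gad1 and Gad2 and loaded into vesicles by the transporter Slc32a1, while Slc17a6 loads glutamate. Of the 10 GABA neuron genes tested, 9 were higher in DMH and 0 in VMH, against 5.51% and 6.73% of all genes tested, with a median of 3.60. Gad1 was at 243, 226, 179, 259 and 286 CPM in DMH and at 17.2, 9.15, 6.5, 7.47 and 16.6 CPM in VMH (4.42 ± 0.22, adjusted p = 2.64e-09). Slc32a1 was at 168, 85.4, 130, 115 and 122 CPM in DMH and at 3.20, 5.70, 13.3, 6.79 and 2.37 CPM in VMH (4.39 ± 0.33, adjusted p = 2.60e-07). Neither gene had overlapping groups. The homeobox genes Dlx1, Dlx5 and Dlx6, which specify GABAergic neurons of the forebrain, differed by 5.53, 4.34 and 2.62. Dlx1 was at 103 to 144 CPM in DMH, and in VMH at 14.7 CPM in mouse Fed-308 and 0 to 3.49 CPM in the others. Dlx6os1, at 4.33, runs antisense to Dlx6, and how strand was used in counting is not given in the sources used here. Slc6a11, a plasma membrane GABA transporter not confined to neurons, was higher in DMH by 0.41. Its call ended without the mouse term (adjusted p = 0.27) and without the variance trend of limma (adjusted p = 0.2695). Abat, which degrades GABA, was at 417 ± 86.6 CPM in DMH and 404 ± 44.9 CPM in VMH (adjusted p = 0.921). Of 5 genes tested from the glutamate neuron list, 2 (40%) were higher in VMH and 1 (20%) in DMH, against 6.73% and 5.51% of all genes tested. Slc17a6 was at 141, 201, 182, 245 and 254 CPM in DMH and at 420, 545, 669, 779 and 755 CPM in VMH, higher in VMH of every mouse by between -1.88 and -1.44 (-1.62 ± 0.10, adjusted p = 2.27e-08). Nrgn, a postsynaptic calmodulin-binding protein, was at 9.61 ± 5.06 CPM in DMH and 93.3 ± 28.6 CPM in VMH (-3.28 ± 0.24). Nrn1, which encodes neuritin, went the other way by 3.49, and Gls2 and Tbr1 were not called.

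Of the 16 neuropeptide and granule genes tested, 8 were higher in DMH (50%) and 2 in VMH (12.5%), against 5.51% and 6.73% of all genes tested, with a median of 0.43. Hcrt, the orexin precursor, was at 169, 54.5, 69.6, 73.6 and 79.8 CPM in DMH and at 0.873, 0, 0, 2.04 and 2.71 CPM in VMH (6.08 ± 0.45, adjusted p = 2.18e-07). Cck, the cholecystokinin precursor, was at 51.1, 23.9, 32.2, 14.1 and 48.5 CPM in DMH and at 0 to 1.5 CPM in VMH (5.04 ± 0.50, adjusted p = 5.10e-06). Pmch, the precursor of melanin-concentrating hormone, was at 631, 149, 200, 280 and 164 CPM in DMH and at 28.8, 8.98, 25.0, 26.7 and 33.7 CPM in VMH (3.40 ± 0.25, adjusted p = 1.65e-07). For both Hcrt and Pmch the DMH library of mouse Fed-111 was the highest, and the groups did not overlap. Penk, the proenkephalin gene, was at 128 ± 24.0 CPM in DMH and 59.9 ± 16.5 CPM in VMH (1.11 ± 0.18). The granule proteins Vgf, Scg3 and Scg2 were higher in DMH by 1.14, 0.48 and 0.39. Cbln1, a secreted synapse organiser, was at 68.7 ± 22.7 CPM in DMH and 312 ± 84.9 CPM in VMH (-2.21 ± 0.15). Tac1, the substance P precursor, was higher in VMH by a smaller margin (-1.07 ± 0.24, adjusted p = 0.0094), and its groups overlapped. Scg3, Scg2 and Tac1 were not called without the variance trend (adjusted p = 0.2297, 0.277 and 0.146).

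Hcrt and Pmch neurons lie mainly in the lateral hypothalamus beside the DMH. All 4 genes tested from the lateral hypothalamus list (Hcrt, Pmch, Parpbp and Peg10) were higher in DMH, against 5.51% of all genes tested. The summed level of these genes was 1734 to 3256 CPM in DMH and 434 to 480 CPM in VMH. Of these genes, Hcrt was at 0 in 2 of the 5 VMH libraries. Parpbp overlaps Pmch on chromosome 10 on the other strand, so it may not count as a separate marker. Its level in DMH was 602 ± 497 CPM, with mouse Fed-111 the highest, as for Hcrt and Pmch. Whether Parpbp and Pmch shared reads was not tested. In fed libraries of the arcuate nucleus (ARC) and the paraventricular nucleus (PVN), Pmch was between 0.228 and 1.67 CPM and Parpbp between 0.678 and 6.66 CPM. Peg10, an imprinted gene that made up much of the summed level, was at 1140 ± 144 CPM in DMH and 382 ± 40.1 CPM in VMH, but also at 1148 to 1609 CPM in ARC and 587 to 1161 CPM in PVN. The part that lateral hypothalamic tissue at the edge of the DMH capture had in the genes higher in DMH was not tested.

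The genes of peptide processing that were tested did not pass the threshold in fed mice. The list held 8 genes, of which Nhlh2, Furin, Cpe and Pcsk1n were tested. With limma 0 were called in either direction, and 1 (Nhlh2) had an unadjusted p under 0.05. Among all genes tested these shares were 12.2% and 21.4%, so the counts do not set this short list apart. Pcsk1, the convertase itself, and the feeding genes Pomc and Agrp were not analysed here. Cpe, the carboxypeptidase of neuropeptide maturation, was at 1477 ± 365 CPM in DMH and 1479 ± 323 CPM in VMH. In fasted mice Cpe (0.25, adjusted p = 0.0175) and Pcsk1n (-0.28, adjusted p = 0.0891) were called. Nhlh2, a transcription factor linked to prohormone convertase expression, was at 4.43, 12.1, 3.28, 9.72 and 4.41 CPM in DMH and at 0.582, 11.2, 0.25, 2.72 and 2.37 CPM in VMH. DMH was higher in 5 of 5 mice but the ranges overlapped (1.41 ± 0.53, adjusted p = 0.119). Lepr, the leptin receptor, was at 8.98 to 45.0 CPM in DMH and 8.75 to 27.9 CPM in VMH (0.18 ± 0.34, adjusted p = 0.817). Socs3, an inhibitor of leptin signalling, was at 2.07 ± 2.05 and 1.12 ± 0.74 CPM (adjusted p = 0.777).

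Receptors for peptides and metabolic hormones were divided between the nuclei, with 9 of 33 (27.3%) higher in DMH and 11 (33.3%) in VMH, against 5.51% and 6.73% of all genes tested (median -0.33). The receptors of cholecystokinin split by type. Cckar was at 18.1, 21.4, 23.7, 16.3 and 14.2 CPM in DMH and at 4.36, 2.07, 1.25, 1.36 and 2.54 CPM in VMH, a difference of 2.85 ± 0.44 (adjusted p = 4.97e-04). Cckbr was at 3.75, 0.208, 4.05, 9.48 and 1.02 CPM in DMH and at 43.6, 40.6, 27.2, 43.2 and 30.1 CPM in VMH, a difference of -3.66 ± 0.49 (adjusted p = 1.34e-04). Each receptor had separate ranges in the nuclei, in opposite order, and Cck itself was on the DMH side. The opioid receptors also split in fed mice: Oprm1, the mu receptor, was higher in DMH (1.89 ± 0.28), and Oprd1, the delta receptor, was higher in VMH (-1.82 ± 0.38). In fasted mice Oprm1 differed by 1.65 and Oprd1 by -0.21, and Oprd1 was not called (adjusted p = 0.784, and 0.915 for the interaction with feeding). On the DMH side were also Brs3, an orphan bombesin-like receptor that affects energy balance (3.20 ± 0.52), Nmur2, a neuromedin U receptor (2.58 ± 0.56), Ghsr, the ghrelin receptor (1.80 ± 0.52), Trhr, the thyrotropin-releasing hormone receptor (1.22 ± 0.31), and Tacr1, a tachykinin receptor (1.22 ± 0.42). Brs3 was at 11.9, 8.94, 16.8, 22.8 and 14.6 CPM in DMH and at 0.45 to 2.76 CPM in VMH. On the VMH side were Sstr3, a somatostatin receptor (-3.71 ± 0.45), Qrfpr, the receptor of the peptide QRFP (-3.13 ± 0.49), Hcrtr1, an orexin receptor (-1.80 ± 0.52), Oxtr, the oxytocin receptor (-1.72 ± 0.36), the cannabinoid receptor Cnr1 (-1.68 ± 0.16), Mchr1, the receptor of melanin-concentrating hormone (-1.35 ± 0.45), and Npy1r (-0.99 ± 0.32). Sstr3 was at 2.05, 3.95, 2.12, 1.58 and 0.17 CPM in DMH and at 30.0, 43.2, 30.2, 14.9 and 24.9 CPM in VMH. For orexin and for melanin-concentrating hormone, the precursor was on the DMH side and a receptor on the VMH side. In fasted mice Hcrtr1 differed by -1.345 (adjusted p = 0.117) and Mchr1 by 0.18, the opposite direction (adjusted p = 0.846), and neither was called. The adjusted p of the interaction with feeding was 0.985 for Hcrtr1 and 0.915 for Mchr1. Of the 20 receptors called in fed mice, 14 were also called in fasted mice in that direction, and Ghsr (0.79) and Npy1r (-0.37) were not. Over all 1170 genes called in fed mice, 62.05% were called again in that direction. With 1 mouse left out, the call was lost for Tacr1 (without any of the 5 mice, adjusted p = 0.107 to 0.343), Ghsr (any but mouse Fed-125, 0.109 to 0.149), Hcrtr1 (any but mouse Fed-111, 0.102 to 0.153), Mchr1 (any but mouse Fed-111, 0.112 to 0.267), Npy1r (mouse Fed-111, Fed-125 or Fed-308, 0.107 to 0.233) and Trhr (mouse Fed-308, 0.122). Without the variance trend it was lost for Tacr1, Ghsr, Mchr1 and Npy1r (0.1112 to 0.185). Without the mouse term it was lost for Tacr1 and Mchr1 (0.117 and 0.16). The Tacr1 difference fell to 0.77 without mouse Fed-127. Mc4r, Mc3r and Hcrtr2 were among the 13 receptors that were not called.

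Regional transcription factors gave 15 of 42 (35.7%) higher in DMH and 7 (16.7%) higher in VMH, against 5.51% and 6.73% of all genes tested, with a median of 0.74. Foxp2, a forkhead factor, was at 44.9 to 84.0 CPM in DMH and 3.17 to 18.3 CPM in VMH (2.91 ± 0.36, adjusted p = 6.31e-05). Hmx2, a homeobox factor, was at 4.37 to 7.69 CPM in DMH and 0 to 0.291 CPM in VMH (3.52 ± 0.57, adjusted p = 7.87e-04). Lhx5, Ebf1, Onecut2 and Isl1 were also on the DMH side, by 2.08, 1.5, 1.44 and 1.00. The call was lost for Lhx5 without any mouse but Fed-111 (adjusted p = 0.106 to 0.18), for Isl1 without mouse Fed-127, Fed-308 or Fed-313 (0.196 to 0.303) and for Ebf1 without mouse Fed-111 (0.105). Without the variance trend all of these were lost (0.121 to 0.151), and without the mouse term Isl1 was (0.136). On the VMH side, Lmo3, a LIM-only cofactor, was at 43.3, 110.6, 92.5, 110.8 and 106 CPM in DMH and at 360, 417, 493, 610 and 489 CPM in VMH (-2.40 ± 0.14, adjusted p = 2.27e-08). Ldb2, a LIM-domain binding protein, and Tshz2, a teashirt zinc-finger factor, followed at -1.70 and -0.84. Of 10 nuclear receptors tested, 1 (10%) was higher in DMH and 3 (30%) in VMH. Rorb, an orphan receptor of the circadian ROR group, was at 293, 339, 342, 351 and 416 CPM in DMH and at 47.4, 78.9, 72.7, 94.3 and 94.7 CPM in VMH (2.19 ± 0.13, adjusted p = 2.27e-08). The progesterone receptor Pgr was at 19.7 ± 8.97 CPM in DMH and 46.0 ± 6.24 CPM in VMH (-1.32 ± 0.27), with no overlap. Nr2f2, also known as COUP-TFII, was higher in VMH by -1.03 ± 0.16.

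Ion channels and transmitter receptors were called on both sides. Of 59 potassium channel genes, 6 (10.2%) were higher in DMH and 13 (22.03%) in VMH, against 5.51% and 6.73% of all genes tested, with a median of -0.18. Kcna1, a low-threshold voltage-gated channel, was at 22.2, 23.1, 16.6, 28.8 and 12.2 CPM in DMH and at 128, 86.8, 129, 141 and 126 CPM in VMH (-2.58 ± 0.22, adjusted p = 1.18e-06). Its relative Kcna2 (-1.16 ± 0.16), the EAG and ERG family channels Kcnh1, Kcnh5 and Kcnh7 (-1.35, -1.94 and -1.29) and the M-current channel Kcnq3 (-1.46 ± 0.22) were also higher in VMH. Kcnt2, a sodium-activated channel, was at 60.5 ± 12.8 CPM in DMH and 12.4 ± 3.35 CPM in VMH (2.26 ± 0.25), and Kcng3, a modifying subunit, differed by 2.98 ± 0.58 with overlapping groups. Among 17 sodium and calcium channel genes, 5 (29.4%) were called in each direction. Cacna2d1, the auxiliary calcium channel subunit bound by gabapentin, was at 138, 228, 157, 207 and 231 CPM in DMH and at 610, 756, 840, 1093 and 1054 CPM in VMH (-2.17 ± 0.11, adjusted p = 2.64e-09). The sodium channel genes split, with Scn9a (1.73 ± 0.15) and Scn3b (1.54 ± 0.14) higher in DMH and Scn2b (-0.61 ± 0.15), Scn1a (-0.49 ± 0.14) and Scn2a (-0.44 ± 0.10) higher in VMH. Scn1a was not called without mouse Fed-125 or without mouse Fed-127 (adjusted p = 0.1110 and 0.1285). Scn2b, Scn1a and Scn2a were not called without the variance trend (adjusted p = 0.2266, 0.224 and 0.2455), nor was Scn2a without the mouse term (0.112).

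Of 40 ligand-gated and amine receptor genes, 7 (17.5%) were higher in DMH and 18 (45%) in VMH, where all genes tested gave 5.51% and 6.73%, and the median was -0.47. Chrm5, a muscarinic acetylcholine receptor, was at 8.86, 0.416, 2.51, 7.05 and 4.41 CPM in DMH and at 84.9, 17.8, 52.2, 38.2 and 48.4 CPM in VMH (-3.46 ± 0.37, adjusted p = 1.49e-05). The glycine receptor genes Glra3 and Glra1 were higher in VMH by -2.34 ± 0.35 and -2.09 ± 0.21, without overlap. The serotonin receptors split: Htr2c, which mediates satiety signals of serotonin, was at 59.99, 83.4, 88.6, 71.8 and 74.9 CPM in DMH and at 20.1, 19.5, 18.3, 14.0 and 15.2 CPM in VMH (2.09 ± 0.22), whereas Htr2a was higher in VMH (-1.93 ± 0.39). GABA-A receptor subunits split as well, with Gabrg3 higher in DMH (1.14 ± 0.12) and Gabra5, Gabra2, Gabra4 and Gabrb1 higher in VMH by -1.75, -0.96, -0.95 and -0.56. The call was lost for Gabra2 without mouse Fed-127 or Fed-313 (adjusted p = 0.164 and 0.122), and for Gabra4 and Gabrb1 without mouse Fed-308 (0.198 and 0.117). Without the variance trend these and Drd2 were lost (0.116 to 0.221), and without the mouse term Gabra2 was (0.142). The dopamine receptor Drd2 was at 25.2 CPM in DMH of mouse Fed-111 and 3.33 to 11.3 CPM in the other DMH libraries, against 0.453 to 4.07 CPM in VMH (1.84 ± 0.54, adjusted p = 0.0456), and it was not called without mouse Fed-111, Fed-308 or Fed-313 (adjusted p = 0.132, 0.202 and 0.101).

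Among 87 adhesion and guidance genes, 14 (16.1%) were higher in DMH and 16 (18.4%) in VMH, against 5.51% and 6.73% over all genes, with a median of -0.16. Nrxn3, a presynaptic neurexin, was at 597, 738, 639, 542 and 591 CPM in DMH and at 103, 140, 154, 90.0 and 126 CPM in VMH (2.36 ± 0.11, adjusted p = 2.64e-09). Efna5, an ephrin ligand, was at 32.6 ± 7.56 CPM in DMH and 8.53 ± 3.78 CPM in VMH (1.93 ± 0.32), while its receptor family was divided, with Epha3 higher in DMH (2.65 ± 0.59) and Epha5 and Ephb1 higher in VMH (-1.03 and -0.95). The cadherins Cdh4 and Cdh13 were higher in VMH: Cdh4 was at 15.4 to 21.02 CPM in DMH and 126 to 184 CPM in VMH (-3.00 ± 0.19, adjusted p = 3.16e-08), and Cdh13 differed by -1.71 ± 0.12. The guidance ligands Slit3 and Slit2 were higher in VMH by -2.83 ± 0.29 and -1.17 ± 0.14. Unc5d, a netrin receptor, was higher in DMH (1.10 ± 0.12).

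**Figure D3:**
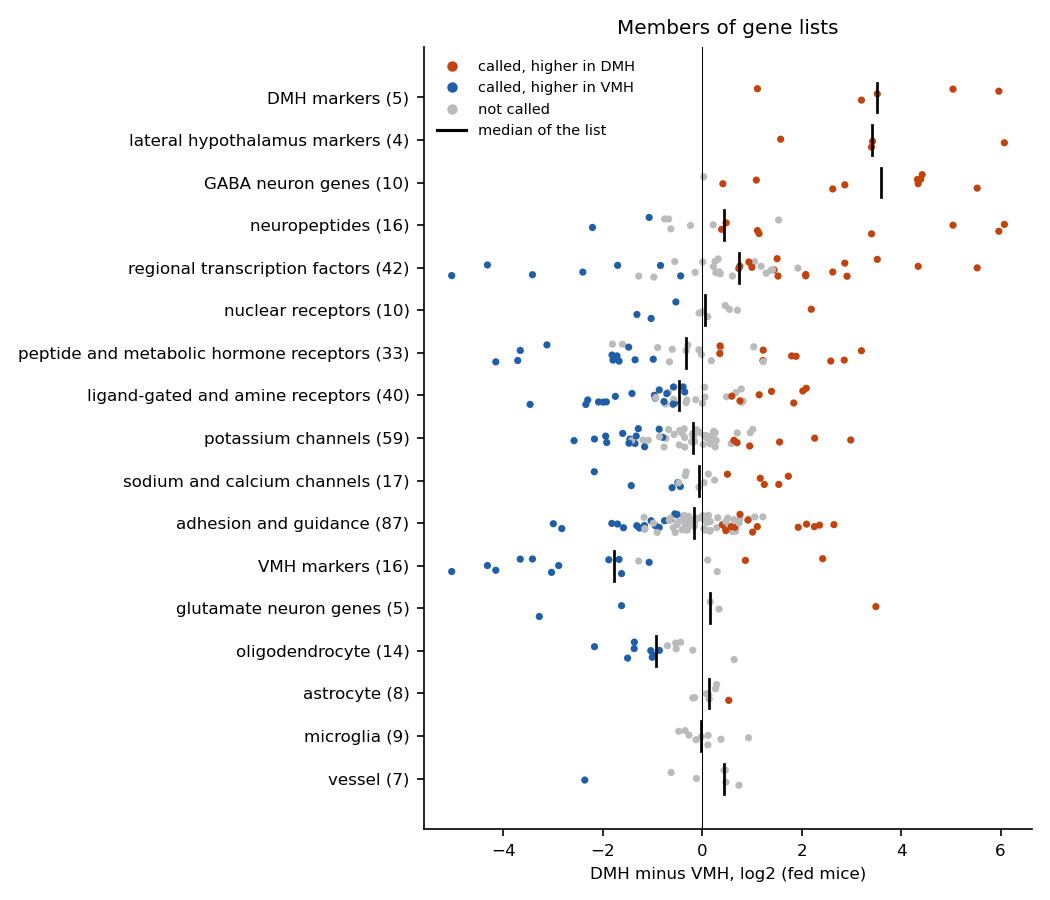
Difference between DMH and VMH in fed mice (x axis, log2) of the members of 17 gene lists, 1 point per gene tested with the number of genes in brackets. Orange and blue points are called higher in DMH and in VMH, grey points are not called and black bars are medians, which run from 3.60 for the GABA neuron genes to -1.78 for the VMH markers.

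Genes of oligodendrocytes, the myelin-forming cells, moved with the VMH side. Of 14 tested, 8 (57.1%) were higher in VMH, against 6.73% of all genes tested, and 0 in DMH, with a median of -0.93, and their summed level was 575 to 1010 CPM in DMH and 1368 to 2081 CPM in VMH. Mbp and Mobp, which encode structural proteins of central myelin, differed by -0.87 and -1.01. Olig1, Olig2, Mog and Mag were among the 6 that were not called. In the fasted mice 4 of the 14 were called, among them Mbp, Mobp and Olig2 at -0.89, -0.70 and -0.80. Of all genes tested, 6.16% were called higher in DMH and 7.75% higher in VMH in fasted mice. The median of the oligodendrocyte list there was -0.61. Trf, Fa2h, Opalin, Sox10 and Ugt8a, which were called in fed mice, differed by -0.36, -0.56, -0.89, -0.09 and -0.46 in fasted mice and were not called, and the adjusted p of the interaction with feeding was 0.915 to 0.931. The part of myelin or oligodendrocytes in the other genes higher in VMH was not tested. Astrocyte genes gave 1 of 8 higher in DMH (Gja1, 0.53 ± 0.16, adjusted p = 0.0533), which is near the share of 12.2% called among all genes tested, with summed levels of 761 to 959 CPM in DMH and 695 to 864 CPM in VMH. Microglia genes gave 0 of 9 called with limma and 0 at an unadjusted p under 0.05, against 12.2% and 21.4% of all genes tested. Their summed levels were 108 to 227 CPM in DMH and 110.6 to 216 CPM in VMH. Of 7 vessel genes 1 (14.3%), Acta2 of smooth muscle, was higher in VMH (-2.36 ± 0.59), near the 12.2% called among all genes tested. Acta2 overlapped between nuclei, with 25.9 CPM in DMH of mouse Fed-111 against 0.17 to 7.90 CPM in the other DMH libraries. The vessel list had a median of 0.44, with 4 genes above 0 and 3 below. Its summed level was 132 to 181 CPM in DMH and 124 to 153 CPM in VMH. Among 4 genes of ependyma, tanycytes and choroid plexus, Kl, the klotho gene, was called higher in DMH (1.18 ± 0.31). The others, Col23a1, Crym and Foxj1, were at -0.44, -0.37 and -1.31 and were not called, and the median of the list was -0.40. With 1 mouse left out, the call was lost for Opalin (mouse Fed-111, Fed-125 or Fed-313, adjusted p = 0.107 to 0.13), Ugt8a (mouse Fed-111 or Fed-313, 0.1248 and 0.208), Sox10 (mouse Fed-125, Fed-127 or Fed-308, 0.154 to 0.277), Gja1 (mouse Fed-127, Fed-308 or Fed-313, 0.113 to 0.22) and Kl (mouse Fed-127 or Fed-308, 0.105 and 0.101). Without the variance trend Opalin, Trf, Ugt8a, Sox10, Gja1 and Acta2 were not called (0.144 to 0.3001), and without the mouse term Ugt8a, Sox10 and Gja1 were not (0.108 to 0.186).

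The same contrast was taken in 5 other mice, fasted for 24 hours. Of the 1170 genes called in fed mice, 1117 (95.5%) had the same direction in fasted mice and 726 (62.1%) were also called there in that direction, which is 54.6% of the 1330 genes called in fasted mice. None of the 1170 was called in the opposite direction. Among the lists, all 10 neuropeptide genes, 8 of 9 GABA neuron genes, 18 of 22 regional transcription factors, 14 of 19 potassium channels, 19 of 25 ligand-gated and amine receptors, 21 of 30 adhesion and guidance genes and 3 of 8 oligodendrocyte genes called in fed mice were called in that direction in fasted mice too. In fasted mice 589 genes (6.16%) were called higher in DMH and 741 (7.75%) higher in VMH. Across all genes tested, which are not independent replicates, the correlation of the fed and fasted differences was 0.625. Npvf differed by 6.31 in fasted mice, Gpr50 by 5.87, Hcrt by 5.78, Gad1 by 4.20, Slc17a6 by -1.67 and Fezf1 by -4.999. A test of whether the difference between nuclei depended on feeding called 0 genes with limma (0%), with 519 genes at an unadjusted p under 0.05, against 478 for 5% of the genes tested, and a smallest adjusted p of 0.915. The 3 genes with the smallest p were Lgi1, a secreted synaptic protein (-1.84 in fed and -1.0 in fasted mice), Tada3, a subunit of histone acetyltransferase complexes (0.76 and -0.62), and 2310040G07Rik (3.31 and -0.99).

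**Figure D4:**
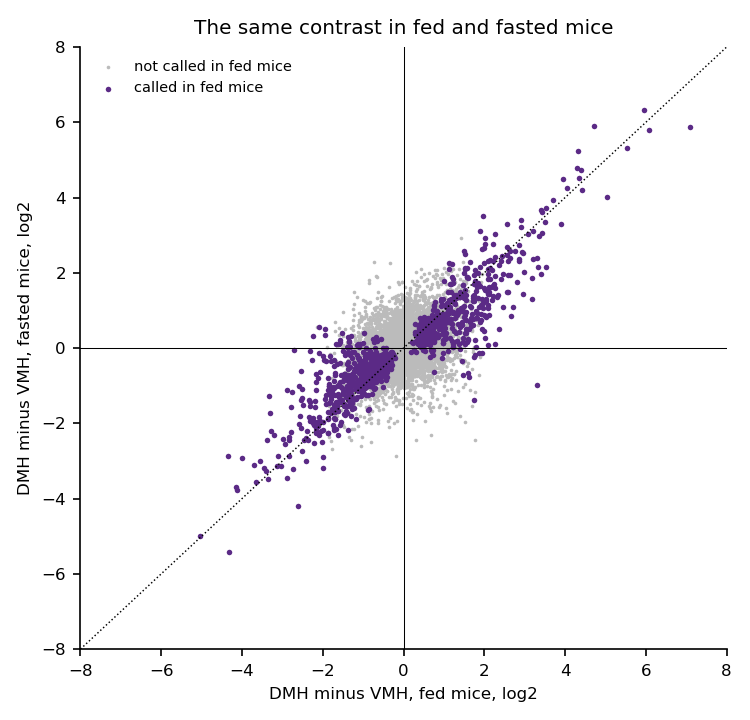
Difference between DMH and VMH in 5 fasted mice (y axis, log2) against the same difference in 5 fed mice (x axis, log2), 1 point per gene, with the 1170 genes called in fed mice in purple and a dotted line where both are equal. Of the purple points, 1117 lie on the same side of 0 in both.

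The levels in the other nuclei of the fed mice show which genes set DMH apart and which set VMH apart, as a description without a test. Npvf was at 0.159 to 0.456 CPM in ARC and 0 to 0.476 CPM in PVN, and Hcrt at 0 to 3.80 and 0 to 1.02 CPM. Both were thus high in the DMH captures and low in the other 3 nuclei. For Hcrt, the part of lateral hypothalamic tissue at the edge of the DMH capture was not tested. Gpr50 was at 41.3 to 68.6 CPM in ARC, below the DMH range of 142 to 229 CPM, and at 1.19 to 6.61 CPM in PVN. Gad1, Slc32a1, Bsx and Th had DMH levels within or close to those of ARC: Gad1 was at 190 to 253 CPM in ARC and Th at 28.4 to 80.2 CPM. Dlk1 was at 512 to 675 CPM in ARC and 476 to 1081 CPM in PVN, against 69.7 to 181 CPM in VMH. Fezf1, Zfp831, Gpr149 and Sstr3 were low in the 3 nuclei other than VMH, as shown by Gpr149 at 0.678 to 7.05 CPM in ARC and 3.81 to 11.4 CPM in PVN. Slc17a6 was at 59.9 to 187 CPM in ARC and 269 to 448 CPM in PVN, so that PVN lay between DMH and VMH.

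**Figure D5:**
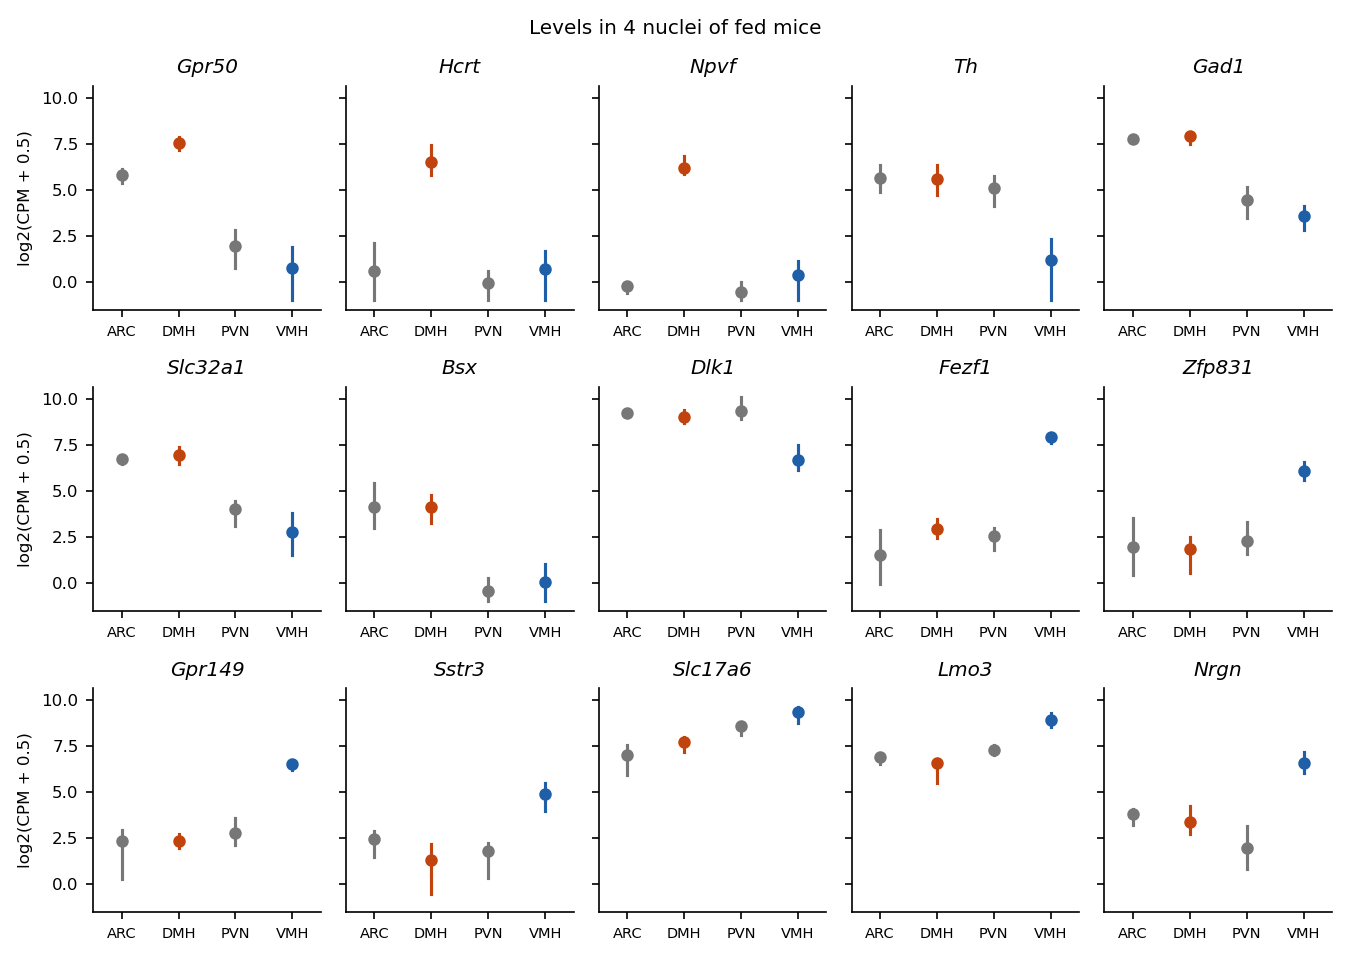
Level of 15 genes (y axis, log2 of CPM + 0.5) in ARC, DMH, PVN and VMH of fed mice, with points for the mean CPM of 5 libraries and bars from the lowest to the highest library. Npvf and Hcrt are high in DMH alone of the 4, and Fezf1, Zfp831 and Gpr149 in VMH alone. The lateral hypothalamus was not among the 4.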

How the data were processed

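Laser-captured RNA was SPIA amplified (Ovation V2) and sequenced as single-end reads. The submitters' processing notes name CASAVA 1.7, TopHat2 2.0.11, Cufflinks 2.2.1, edgeR and limma, and the GRCm38 genome. The authors left out outlier libraries, which can lower the spread between replicates, and deposited CPM per Ensembl gene. The program that counted reads is not given in the sources used here. Of 10127 genes, 9891 were paired with a symbol through GENCODE M21. No identifier lies between ENSMUSG00000000861 and ENSMUSG00000028747, a range of 6725 annotated genes, and these were not analysed here. Another 2 columns of values matched no sample and were not used. Depth was read from the step of low values, of which 97.5% to 98.3% were whole multiples (tolerance 0.05 reads), but some values were not, so no count test was run. Amplified reads do not stand for separate molecules.

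Log2(CPM + 0.5) was fitted with limma 3.58.1 in R 4.3.3, with nucleus and mouse as terms and eBayes with a trend, for genes at 1 CPM or more in at least 5 of the 10 libraries. This scale understates differences of low genes. P values are 2-sided and adjusted by the Benjamini-Hochberg method. Pairing comes from the labels, where 1 number marks both nuclei of 1 mouse. Deviations from the nucleus means had a correlation of r = 0.035 to 0.194 between libraries of the same mouse. Between mice the median was -0.012 and the highest value 0.0768. Mice Fed-111 (0.194) and Fed-308 (0.109) lay above that highest value, and the other mice (0.035 to 0.0739) did not. Libraries of the same mouse also shared a batch. The fit was tested on simulated data. The libraries, members and gene lists were chosen with earlier results of these data known. The genes named are Npvf and Fezf1, the 12 largest differences in each direction among genes called in fed mice that averaged 5 CPM or more in the higher nucleus and had 1 direction in 5 of 5 mice, up to 4 called list members in each direction, Nhlh2, Npy and Lepr, and the 3 smallest interaction p values, and some of these genes are not reported here. Other list members named were chosen after their values were seen. Alternatives were other pseudocounts, filters, scalings and variance models, no pairing, and leaving out mice.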

Additional observations from a re-analysis of the deposited data

Results flagged for a closer look

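In the genes named, 173 groups of 5 libraries were examined with Dixon's test, on the log2 scale, for a library that stands apart, and 14 had one, where chance gives about 8.7. In DMH, the high one was Npvf in mouse Fed-308 (112 CPM, others 56.5 to 68.5). The low ones in DMH were Lmo3 in mouse Fed-111 (43.3 CPM, others 92.5 to 110.8) and Sox10 in mouse Fed-125 (0.416 CPM, others 9.66 to 17.7). In VMH, mouse Fed-111 was high for Cbln1 (462 CPM, others 255 to 292), Slit3 (189 CPM, others 91.6 to 102) and Fa2h (61.7 CPM, others 22.5 to 26.9), and low for Nr2f2 (87.0 CPM, others 117 to 132). Mouse Fed-125 was high in VMH for Dlk1 (181 CPM, others 69.7 to 90.8) and low for Pmch (8.98 CPM, others 25.0 to 33.7) and Kcna1 (86.8 CPM, others 126 to 141). Mouse Fed-127 was high in VMH for Nrn1 (3.00 CPM, others 0.291 to 0.677) and low for Oprm1 (7.25 CPM, others 14.3 to 15.7). Mouse Fed-308 was low in VMH for Rab38 (1.36 CPM, others 5.53 to 7.60) and high for 2310040G07Rik (1.81 CPM, others at 0).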

How the results depend on the processing

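Mouse was a term in the fit, so the comparison was paired. Without this replicate block, 332 genes were called higher in DMH and 443 higher in VMH, and 771 of these 775 calls were among the 1170 of the paired fit, in the same direction. Without the variance trend, 263 and 307 genes were called in fed mice and 267 and 361 in fasted mice, and 506 of the 570 fed calls were shared with the 1170. The cause was not tested. Leaving out 1 mouse at a time gave 380 to 452 genes higher in DMH and 473 to 585 higher in VMH, of which 234 to 254 and 256 to 292 differed by at least 1. In fasted mice it gave 420 to 594 and 561 to 757 genes, and the test of dependence on feeding called 0 each time. The other fed counts were within 1.5 times those reported under every other alternative. Of 171 genes examined, 68 lost the call under some alternative, 56 of them without the variance trend and 49 with 1 mouse left out. With log2 depth as a covariate Tacr1, Isl1, Drd2 and Gja1 lost the call (adjusted p = 0.103 to 0.182), as did Tacr1 and Sox10 without the filter (0.1031 and 0.1093) and Sox10 with a pseudocount of 0.1 (0.1203) or with mouse Fed-92 included (0.17). Nhlh2 passed the threshold with library weights (adjusted p = 0.0894, range 0.0894 to 0.282), and Lepr changed sign without 1 mouse (-0.0776 without mouse Fed-127, and -0.0776 to 0.47 over the mice left out in turn). CPM of at most a few reads, deletion carriers alone, 5 mice and tissue mixtures limit these results.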

Other observations

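The fed DMH library of mouse Fed-92, which had no VMH partner, held 225 CPM of Npvf, above the 56.5 to 112 CPM of the other fed DMH libraries, and 6.96 CPM of Fezf1, within their 4.82 to 10.5 CPM. Its Gpr50 (113 CPM) and Dlx1 (46.1 CPM) were below the range of the other DMH libraries, 142 to 229 CPM and 103 to 144 CPM. Its Nrn1, at 41.2 CPM, was above their 10.3 to 20.5 CPM, and its Npy, at 33.4 CPM, was above the 0.832 to 5.45 CPM of the other DMH libraries and the 1.21 to 11.9 CPM of the VMH libraries.

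Bdnf differed by -2.89 between nuclei in fed mice and by -1.12 in fasted mice (adjusted p of the interaction in limma = 0.915), whereas Gda differed by -3.03 and -3.15.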
